A study of Mus musculus with 6 samples.

Results

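The glycolytic pathway and the transporters that feed and drain it were followed in mouse pancreatic stellate cells (PSCs) at 21% and 1% O2. The set was a fixed list of 40 gene symbols, chosen by function, which covered glucose transporters, each enzyme from hexokinase to lactate dehydrogenase, the enzymes that set fructose 2,6-bisphosphate, the fructose bisphosphatases, and lactate transporters with their chaperone basigin. These symbols matched 41 of the 55426 rows of the count table, because Aldoa is listed under 2 identifiers. PSCs are fibroblast precursors of the pancreas. Here primary PSC lines from wild-type mice were seeded in Matrigel in a transwell insert, above organoids of mT3, a single PDAC line derived from KPC mice, a genetic model of PDAC driven in pancreatic epithelium through Pdx1-Cre. Both groups shared this coculture, the same medium and the duration of 48 h, and differed in oxygen alone, with 3 samples at 21% O2 (normoxia) and 3 at 1% O2 (hypoxia). The coculture is thus common to all values, and PSCs without organoids were not analysed here.

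Glycolysis splits glucose into pyruvate and yields ATP without oxygen. Glucose enters through GLUT carriers, hexokinase traps it as glucose 6-phosphate, phosphofructokinase commits it to the pathway, and lactate dehydrogenase regenerates NAD+ by reducing pyruvate to lactate, which leaves the cell with a proton through monocarboxylate transporters. Many of these steps have several isoforms encoded by separate genes with different kinetics and tissue distribution. In low oxygen, hypoxia-inducible factors (HIFs) are stabilized and are known to activate a number of these genes in many cell types.

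Library totals ran from 24749601 to 25914892 counts at 21% O2 and from 25847719 to 31925054 at 1% O2, and levels are given as library-scaled counts (CPM). A count of 0 allows for up to 3 counts, which equal 0.094 to 0.121 CPM here and cover counting error only. Genes were called higher or lower at 1% O2 when edgeR's quasi-likelihood test gave a linear fold change beyond 1.5 with a Benjamini-Hochberg adjusted p under 0.05 over all 16207 tested genes. Fibroblast genes were abundant in all samples, with summed levels of 28440 to 35640 CPM at 21% and 30470 to 35310 CPM at 1% O2, Col3a1 being the most abundant of them, while Lrat, a marker of vitamin A-storing stellate cells, was at 0 or 1 count. Within this list Pdgfra and Pdpn were called higher and Lum and Thy1 lower. The 10 epithelial markers summed to 32.3 to 34.7 CPM at 21% and 86.0 to 90.7 CPM at 1% O2. Of these, Epcam, Krt8 and Cdh1 were at 6 counts or fewer in each library, and Krt19 and Sox9 were called higher. Krt7 (log2 fold change -0.23) and Muc1 (0.58) were tested and not called. Macrophage markers summed to 1003 to 1790 CPM at 21% and 498 to 907 CPM at 1% O2, and 8 of 12 were called lower (Cd68, Adgre1, Lyz2, Tyrobp, Fcer1g, C1qa, C1qb and C1qc), Adgre1 not without hypoxia replicate 3. Adipocyte markers summed to 598 to 1556 CPM at 21%, the highest in replicate 2, and to 59.4 to 80.3 CPM at 1% O2, with Adipoq, Plin1, Fabp4 and Cfd called lower and Lep at 0. Without normoxia replicate 2 these 4 were still called lower, with log2 fold changes of -3.88 instead of -4.53 for Adipoq and -2.45 instead of -3.48 for Cfd, which moved most. Wt1 and Tek were called higher and Kdr lower among mesothelial and endothelial markers (Kdr was not called without normoxia replicate 1 or 3 or hypoxia replicate 1 or 3), and acinar, T-cell and B-cell markers were near 0 except for Cela1. In bulk RNA, fewer cells of a type and less RNA per cell cannot be told apart.

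The glycolytic genes were higher at 1% O2 at nearly all steps of the pathway. Of the 40 genes, 37 passed the filter on low counts and were tested, and 22 of these were called higher and 5 lower. These are 59.5% and 13.5% of the tested members. Across all tested genes, 18.9% were called higher and 15.3% lower. The liver and red-cell pyruvate kinase Pklr had no count in any sample, and Fbp1 and Fbp2, the fructose bisphosphatases of gluconeogenesis, had at most 1 count, so these 3 were not tested. The median log2 fold change was 0.80 over the tested members, against -0.0040 over all tested genes. Among the called members, 15 of the 22 that rose did so by 2-fold or more and 8 by 3-fold or more. Samples of the groups did not overlap for 31 of the 37 members, and for 68.9% of all tested genes, so that separation of the samples alone says little in these data. Nothing in the labels states that the replicates came from separate PSC lines, and p-values then measure only the spread between these samples, which may be technical.

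**Figure D1:**
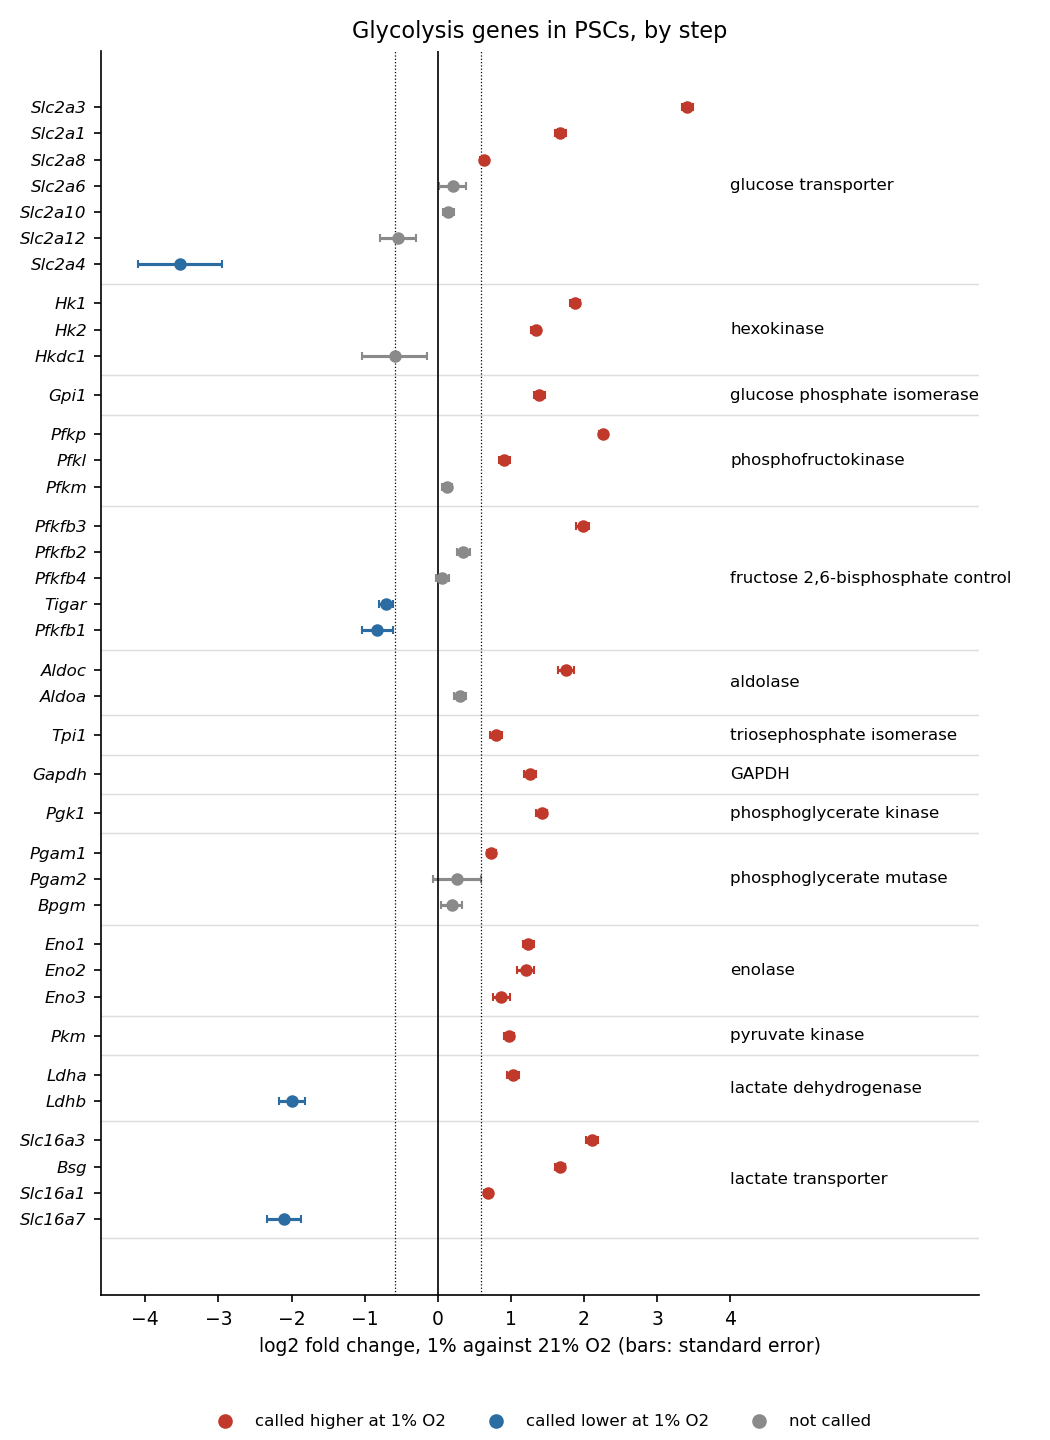
Log2 fold changes (1% against 21% O2, n = 3 per group, bars are standard errors) of the 37 tested genes, grouped by step of the pathway. Red points were called higher, blue points lower and grey points neither, dotted lines mark 1.5-fold, and the points run from -3.52 for Slc2a4 to 3.42 for Slc2a3.

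Together the members took up a larger share of the RNA at 1% O2. The share of a library that fell on them was 1.38, 1.57 and 1.52% at 21% O2 and 3.24, 3.18 and 3.09% at 1% O2. The groups were far apart, at 1.49% ± 0.098 against 3.17% ± 0.074 (SD, n = 3 each), a 2.13-fold difference. The two-sided exact permutation test gave p = 0.1, the smallest value that 3 against 3 samples can give. Pyruvate kinase and GAPDH were the largest parts by group mean, at 0.276% and 0.190% of all counts at 21% and 0.536% and 0.450% at 1% O2, although aldolase was close to GAPDH at 21% O2 (0.187%) and above it in normoxia replicate 2.

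**Figure D2:**
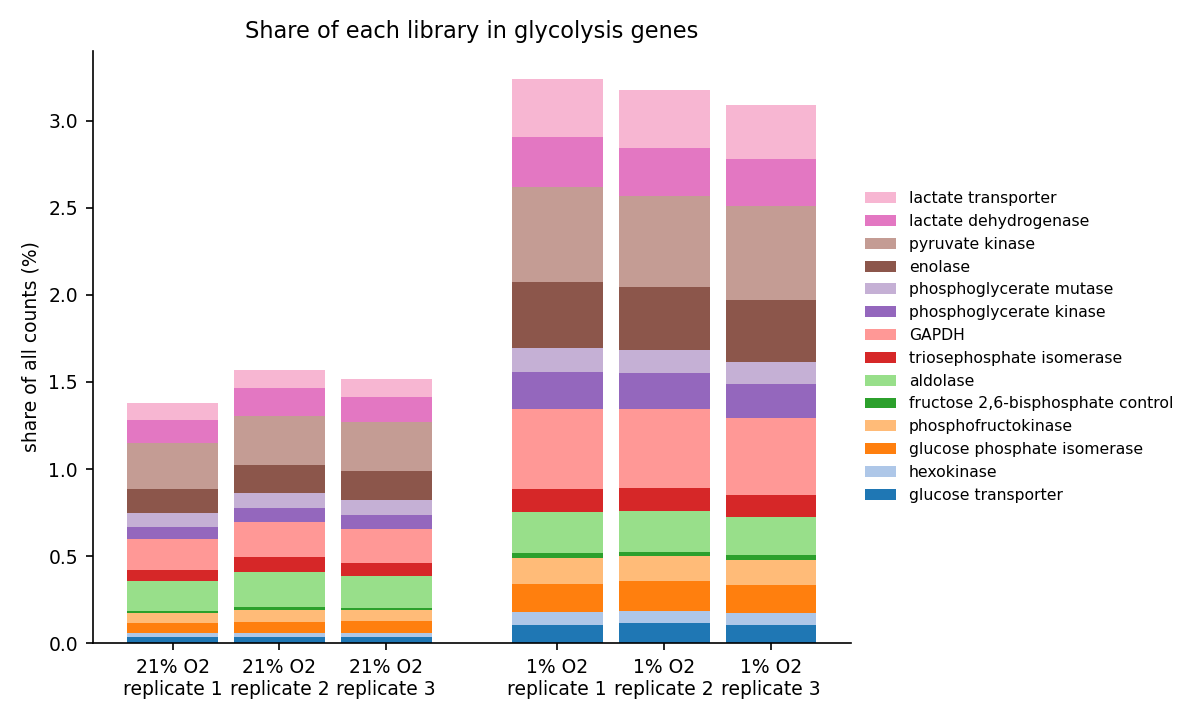
Share of all counts (%) that fell on each glycolytic step in the 6 samples, stacked by step. The 3 normoxic bars reach 1.38% to 1.57% and the 3 hypoxic bars 3.09% to 3.24%, with each tested step except aldolase gaining more than 1.5-fold.

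When the counts of each step were summed and tested in place of its genes, 13 of the 14 steps that could be tested were called higher. The largest changes were at its entry and exit, for lactate transport (log2 fold change 1.69, SE 0.069, adjusted p = 1.57e-07), hexokinase (log2 fold change 1.68, SE 0.062, adjusted p = 9.02e-08) and glucose transport (log2 fold change 1.63, SE 0.069, adjusted p = 2.07e-07). Most of the lactate transport sum was the chaperone Bsg, which is not itself a carrier. Bsg averaged 728 CPM at 21% and 2317 CPM at 1% O2, beside 1016 and 3281 CPM for the sum. The summed glucose transporters stood at 349, 338 and 378 CPM at 21% O2 and 1079, 1159.7 and 1049 CPM at 1% O2. The step that was not called, aldolase, stood at 1714, 2024 and 1850.5 CPM at 21% O2 and 2403, 2354 and 2229 CPM at 1% O2 (log2 fold change 0.32, SE 0.078, adjusted p = 0.00555). That is a 1.25-fold difference, under the 1.5-fold required.

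HIF complexes bind DNA at a short core that reads ACGTG or GCGTG. These letters were searched on both strands (also as CACGT and CACGC) in the 250 bases before each RefSeq start of the members, of which 36 of 40 matched by symbol, in the GRCm38.p6 build. The core was found for 25 of the 36 genes (69.4%) and for 41.5% of the 27025 genes with such a window. Among members called higher it was found for 17 of 20, among those called lower for 2 of 3, and among those tested and not called for 5 of 10. Counted by window, since some genes have several starts, it was in 35 of 54 member windows (64.8%) and in 38.6% of all 32851 windows. The member windows had a median GC content of 56.4% and all windows 52.4%. The 27 windows of members called higher had 61.6%, and windows were not matched on GC content. The palindrome CACGTG, in which the core is read on both strands, was in 6 of the 54 member windows (11.1%) and in 6.02% of all windows. A match is a string of letters, and binding was not measured here. Windows of 6 members are printed because they show the range from 5 matches to 1 beside genes that rose and one that fell. They are the sequences upstream of a RefSeq start of Hk2 (chr6:82774455-82774704, minus strand), Pfkp (chr13:6648778-6649021, minus), Pgk1 (chrX:106186850-106187099, plus), Ldha (chr7:46845554-46845803, plus), Slc16a3 (chr11:120948817-120949052, plus) and Ldhb (chr6:142507958-142508207, minus), 5′ to 3′ on the gene's strand, with matches to the core on either strand in capitals. The windows of Ldha and Slc16a3 lie inside the annotated spans of these genes (chr7:46841475-46855627 and chr11:120948480-120960868), before a start within them. Bases inside an annotated exon were left out at the 3′ end, which shortened Pfkp to 244 and Slc16a3 to 236 bases. A second match of Slc16a3, 14 bases before the start, lies among the bases left out.
Hk2: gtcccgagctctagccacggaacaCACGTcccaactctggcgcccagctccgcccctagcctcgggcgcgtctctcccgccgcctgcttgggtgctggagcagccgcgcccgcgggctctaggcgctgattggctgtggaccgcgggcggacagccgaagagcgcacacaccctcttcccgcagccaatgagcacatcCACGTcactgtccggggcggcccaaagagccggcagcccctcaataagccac
Pfkp: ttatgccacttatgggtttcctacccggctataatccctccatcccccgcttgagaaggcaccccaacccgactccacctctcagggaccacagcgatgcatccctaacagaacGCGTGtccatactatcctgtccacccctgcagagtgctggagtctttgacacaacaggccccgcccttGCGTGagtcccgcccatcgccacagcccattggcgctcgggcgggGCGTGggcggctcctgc
Pgk1: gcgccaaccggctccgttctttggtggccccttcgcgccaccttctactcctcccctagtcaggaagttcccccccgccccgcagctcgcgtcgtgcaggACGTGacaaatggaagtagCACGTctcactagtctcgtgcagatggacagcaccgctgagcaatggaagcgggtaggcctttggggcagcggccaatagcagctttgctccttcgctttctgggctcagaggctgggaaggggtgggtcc
Ldha: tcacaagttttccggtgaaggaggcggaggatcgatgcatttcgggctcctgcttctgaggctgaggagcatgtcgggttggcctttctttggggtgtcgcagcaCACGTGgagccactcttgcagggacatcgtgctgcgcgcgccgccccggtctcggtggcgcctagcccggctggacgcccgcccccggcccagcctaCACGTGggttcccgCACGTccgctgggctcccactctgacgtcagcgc
Slc16a3: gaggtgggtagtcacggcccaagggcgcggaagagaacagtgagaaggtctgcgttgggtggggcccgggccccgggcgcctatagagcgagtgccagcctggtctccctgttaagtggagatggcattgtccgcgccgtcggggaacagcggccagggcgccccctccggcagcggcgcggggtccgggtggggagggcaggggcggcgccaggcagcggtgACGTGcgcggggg
Ldhb: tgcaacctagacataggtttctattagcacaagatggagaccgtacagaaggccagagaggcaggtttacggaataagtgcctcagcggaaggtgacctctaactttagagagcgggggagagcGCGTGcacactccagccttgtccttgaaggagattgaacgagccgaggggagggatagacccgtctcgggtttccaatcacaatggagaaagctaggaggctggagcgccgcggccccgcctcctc
The window of Ldha holds CACGTG at both of its first runs of capitals, starting 145 and 48 bases before the start, and a further CACGT at 34 bases. In Pgk1 the core lies 150 and 131 bases before the start, once on each strand, and Pfkp has GCGTG at 136, 68 and 23 bases. Ldhb, which fell, has a single GCGTG at 126 bases. No match was found in the windows of Gpi1, Tpi1 and Eno2, all called higher.

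Among glucose transporters, the basal carrier GLUT1 and the high-affinity carrier GLUT3 rose while the insulin-responsive carrier GLUT4 fell. Slc2a1, which encodes GLUT1 (chr4:119108711-119137983 in GRCm38), stood at 282, 267 and 309 CPM at 21% O2 and 899.8, 974 and 872 CPM at 1% O2. Every hypoxic sample was above every normoxic one, with a 3.2-fold difference (log2 fold change 1.68, SE 0.075, adjusted p = 2.64e-07). Slc2a3, which encodes GLUT3 (chr6:122727809-122801640), was low at 21% O2, at 9.78, 9.41 and 10.9 CPM, and reached 104, 113 and 104 CPM at 1% O2. The samples of each group lay close together, and the 10.7-fold difference (log2 fold change 3.42, SE 0.075, adjusted p = 1.01e-08) was the largest rise among the members and the 8th of all 16207 genes by p. Slc2a8, an intracellular carrier, rose just past the fold threshold, from 26.1, 25.5 and 26.8 to 41.7, 39.2 and 40.9 CPM (log2 fold change 0.64, SE 0.057, adjusted p = 1.67e-05). Slc2a4, the GLUT4 gene of muscle and fat, had 48, 139 and 46 counts at 21% O2 and 2, 9 and 12 at 1% O2. Normoxia replicate 2 was the highest, the hypoxic samples were all below the normoxic ones, and the level was 11.5-fold lower (log2 fold change -3.52, SE 0.57, adjusted p = 0.00061). Without normoxia replicate 2 the log2 fold change was -2.84 (adjusted p = 0.000357). The same replicate had the highest adipocyte markers, of which 4 of 4 tested were called lower and Lep was at 0 in each library, and their part in the Slc2a4 result was not tested. The remaining carriers were not called: Slc2a6 had a log2 fold change of 0.20 (SE 0.18), Slc2a10 of 0.14 (SE 0.078) and Slc2a12, at 17 to 26 counts and overlapping Tbpl1 at 572 to 743 counts on the opposite strand, of -0.54 (SE 0.25).

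Both main hexokinases rose. Hk1, the broadly expressed form that binds the mitochondrial surface, stood at 131, 127 and 144 CPM at 21% O2 and 513, 479 and 479 CPM at 1% O2. Hk2, the form of muscle, fat and many tumors, stood at 83.0, 88.1 and 92.3 CPM at 21% O2 and 216, 233 and 218 CPM at 1% O2. For both genes all hypoxic samples lay above all normoxic ones, by 3.66-fold for Hk1 (log2 fold change 1.87, SE 0.067, adjusted p = 7.98e-08) and by 2.53-fold for Hk2 (log2 fold change 1.34, SE 0.061, adjusted p = 2.89e-07). Hkdc1, a hexokinase-like gene 3.2 kb from Hk1 on chromosome 10, had 24, 29 and 14 counts at 21% and 25, 9 and 16 at 1% O2. Its groups overlapped and it was not called (log2 fold change -0.59, SE 0.44, adjusted p = 0.272). Gpi1, which converts glucose 6-phosphate to fructose 6-phosphate, rose 2.62-fold, from 579, 668 and 658 CPM to 1667, 1698 and 1621 CPM (log2 fold change 1.39, SE 0.072, adjusted p = 6.61e-07).

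The phosphofructokinase step, which commits sugar to glycolysis, changed unequally across its isoforms. Pfkp, the platelet form, stood at 98.7, 108 and 106 CPM at 21% O2 and 486, 513 and 495 CPM at 1% O2. All hypoxic samples were above all normoxic ones, and it rose 4.79-fold (log2 fold change 2.26, SE 0.059, adjusted p = 2.88e-08), the 14th gene of all tested by p. Pfkl, the liver form and the most abundant in both groups, stood at 415, 506 and 469 CPM at 21% O2 and 911, 855 and 851 CPM at 1% O2, a 1.88-fold rise (log2 fold change 0.91, SE 0.079, adjusted p = 1.29e-05). Pfkm, the muscle form, stood at 63.2, 64.8 and 60.1 CPM at 21% O2 and 73.5, 62.1 and 69.4 CPM at 1% O2. The groups overlapped, and Pfkm was not called (log2 fold change 0.12, SE 0.070, adjusted p = 0.152). Pfkp overlaps Pitrm1 and Pfkm overlaps Senp1 on the opposite strand, and the strand setting of the counting is not given in the sources used here. Pitrm1 had 1708 to 2357 counts, with overlapping groups between 21% and 1% O2, beside 2564, 2845 and 2601 Pfkp counts at 21% and 12384, 16061 and 15765 at 1% O2.

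Fructose 2,6-bisphosphate, the strongest activator of phosphofructokinase, is made by kinase domains of the PFKFB enzymes and removed by their phosphatase domains and by TIGAR. Pfkfb3, whose kinase activity predominates, stood at 51.0, 65.9 and 60.2 CPM at 21% O2 and 248, 225 and 225 CPM at 1% O2. No sample of one group reached the other, and the rise was 3.94-fold (log2 fold change 1.98, SE 0.093, adjusted p = 3.5e-07). Tigar, the fructose bisphosphatase-like regulator, fell by 0.70 on the log2 scale, from 13.4, 12.6 and 11.7 CPM to 8.05, 7.53 and 7.61 CPM (SE 0.095, adjusted p = 0.000194). Pfkfb1, the liver and muscle form, was at 2.62, 3.91 and 3.0 CPM at 21% O2 and 1.49, 1.79 and 2.07 CPM at 1% O2 and was called lower (log2 fold change -0.82, SE 0.22, adjusted p = 0.00901), and it overlaps Apex2 on the opposite strand. Their counts were 68, 103 and 74 at 21% and 38, 56 and 66 at 1% O2 for Pfkfb1 and 257, 377 and 272 and 214, 242 and 283 for Apex2, each highest in normoxia replicate 2, and the part of Apex2 reads in the result was not tested. Pfkfb4 was not called, at 12.3, 14.1 and 12.5 CPM at 21% O2 and 13.4, 13.0 and 14.3 CPM at 1% O2 (log2 fold change 0.06, SE 0.090, adjusted p = 0.56). Pfkfb2, the heart form, passed the adjusted p but not the fold (log2 fold change 0.35, SE 0.083, adjusted p = 0.005), and it overlaps Yod1 on the opposite strand, which had 120, 154 and 122 counts at 21% and 204, 263 and 270 at 1% O2.

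Aldolase splits fructose 1,6-bisphosphate into triose phosphates. Aldoa, its main gene here, stood at 1702, 2008 and 1837 CPM at 21% O2 and 2356, 2307 and 2182 CPM at 1% O2. The groups did not overlap, but the difference was 1.23-fold and under the threshold (log2 fold change 0.30, SE 0.078, adjusted p = 0.00755). Aldoc, the brain form, stood at 11.2, 16.5 and 14.0 CPM at 21% O2 and 46.9, 47.1 and 47.0 CPM at 1% O2. The hypoxic samples were nearly equal, and the rise was 3.38-fold (log2 fold change 1.75, SE 0.11, adjusted p = 2.36e-06), from a level far below that of Aldoa. The second row named Aldoa (chr7:126800790-126809108, on the minus strand like the main gene, with its 3′ end next to the main gene's start) had 4, 8 and 15 counts at 21% and 13, 8 and 18 at 1% O2 and was not called. Tpi1, which interconverts the trioses, rose 1.74-fold from 681, 830.1 and 773 CPM to 1374, 1313 and 1275 CPM (log2 fold change 0.80, SE 0.081, adjusted p = 3.4e-05).

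The steps that yield ATP and NADH rose, led by Pgk1. Gapdh, which oxidizes glyceraldehyde 3-phosphate and is often used as a reference gene, stood at 1732, 1962 and 1976 CPM at 21% O2 and 4648, 4532 and 4401 CPM at 1% O2. All hypoxic samples exceeded all normoxic ones, and Gapdh rose 2.40-fold (log2 fold change 1.26, SE 0.077, adjusted p = 1.63e-06). Pgk1, the first ATP-forming enzyme, stood at 705, 814 and 796 CPM at 21% O2 and 2126, 2104 and 1969 CPM at 1% O2, again without overlap, and rose 2.68-fold (log2 fold change 1.42, SE 0.076, adjusted p = 7.4e-07). Pgam1, the mutase that follows, rose 1.66-fold (log2 fold change 0.73, SE 0.066, adjusted p = 1.64e-05). Its muscle form Pgam2, at 10 to 20 counts, had a log2 fold change of 0.26 (SE 0.33), and Bpgm, which makes 2,3-bisphosphoglycerate, one of 0.19 (SE 0.14). Neither was called. All 3 enolases rose. Eno1, the ubiquitous form, stood at 1339.5, 1485 and 1544 CPM at 21% O2 and 3601, 3387 and 3316 CPM at 1% O2, and the neuronal form Eno2 at 74.9, 100.5 and 101 CPM at 21% O2 and 209, 198 and 228 CPM at 1% O2. Their rises were close, 2.36-fold for Eno1 (log2 fold change 1.24, SE 0.077, adjusted p = 1.81e-06) and 2.3-fold for Eno2 (log2 fold change 1.2, SE 0.11, adjusted p = 2.02e-05). The muscle form Eno3 rose 1.82-fold, from 7.20, 7.17 and 7.59 CPM to 12.4, 12.1 and 15.5 CPM.

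Pkm, the pyruvate kinase of most tissues other than liver, stood at 2622, 2778 and 2842 CPM at 21% O2 and 5553, 5242 and 5401 CPM at 1% O2, with no overlap. It rose 1.97-fold (log2 fold change 0.97, SE 0.070, adjusted p = 4.39e-06). Pkm makes its M1 and M2 forms by choosing between a pair of alternative exons, and the table gives 1 value for the gene, so these forms were not separated. A single-exon gene on the same strand, Gm49759 (chr9:59672814-59676700), lies inside Pkm and covers both alternative exons and the intron around them. Its counts were 1137, 2413 and 1733 at 21% and 13105, 16030 and 19593 at 1% O2. That is 1.67 to 3.30% of the Pkm count at 21% and 9.27 to 11.4% at 1% O2, with no overlap, and a log2 fold change of 3.0 (SE 0.23, adjusted p = 5.82e-06). Reads of the overlap cannot be told apart by gene. With the counts of Gm49759 added to Pkm, an alternative chosen after the data were seen, the log2 fold change of Pkm was 1.08.

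Several abundant members have near-identical copies elsewhere in the genome, between which reads can be split. Gapdh had 77 annotated copies with at least 95% identity, and these held 12.3 to 18.1% of the counts of gene and copies together. For Pgk1 the share was 6.89 to 10.4% (4 copies), for Pgam1 5.69 to 7.29%, for Pkm 3.64 to 5.87% and for Eno1 2.26 to 3.22%. With all 92 copies added to their members, 22 members were called higher and 5 lower.

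The lactate end of the pathway showed opposite changes between isoforms. Ldha, the subunit of the muscle-type enzyme that favors lactate formation, stood at 1229, 1482 and 1378 CPM at 21% O2 and 2921, 2740.4 and 2704 CPM at 1% O2. The groups were apart, and Ldha rose 2.05-fold (log2 fold change 1.03, SE 0.083, adjusted p = 8.1e-06). Ldhb, the heart-type subunit, stood at 59.0, 81.3 and 55.4 CPM at 21% O2 and 13.5, 20.5 and 14.8 CPM at 1% O2. The order was reversed, with each hypoxic sample below each normoxic one, and Ldhb was 3.99-fold lower (log2 fold change -2.0, SE 0.18, adjusted p = 1.63e-05). Ldhb was highest in normoxia replicate 2, as were the adipocyte markers, whose part in it was not tested. With each sample left out in turn, its log2 fold change ran from -2.20 to -1.81. Slc16a3, which encodes the lactate exporter MCT4, stood at 172, 177 and 211 CPM at 21% O2 and 834, 811 and 769 CPM at 1% O2. It rose 4.31-fold (log2 fold change 2.11, SE 0.086, adjusted p = 1.59e-07), and the groups did not overlap. Slc16a1, which encodes the bidirectional carrier MCT1, stood at 101, 97.4 and 96.6 CPM at 21% O2 and 156, 159.5 and 159.7 CPM at 1% O2. Its rise was 1.61-fold (log2 fold change 0.69, SE 0.049, adjusted p = 3.99e-06), the replicates being close in both groups. Slc16a7, which encodes the high-affinity carrier MCT2, had 66, 76 and 50 counts at 21% and 15, 19 and 17 at 1% O2 and was 4.29-fold lower (log2 fold change -2.10, SE 0.24, adjusted p = 6.46e-05). It too was highest in normoxia replicate 2, and leaving out each sample in turn gave log2 fold changes of -2.23 to -1.99. Bsg, the chaperone that carries MCT1 and MCT4 to the plasma membrane, stood at 705, 729 and 751 CPM at 21% O2 and 2368, 2389 and 2195 CPM at 1% O2. It was higher in every hypoxic sample, by 3.18-fold (log2 fold change 1.67, SE 0.066, adjusted p = 1.35e-07).

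The balance between isoforms was then compared within each sample, as the log2 ratio of the counts of a pair. Of 9 pairs chosen for this purpose, 8 separated the groups without overlap. Each of these had a two-sided exact permutation p = 0.1, the smallest possible with 3 against 3 samples (0.1125 after adjustment over the 9 pairs). The pairs consist of members, which were chosen with earlier results of these data known. How often other pairs of genes separate was not computed, and single genes did so for 68.9% of all tested genes. The test cannot pass 0.05 in this design, and the pairs are given by their sizes. The ratio of Ldhb to Ldha changed most, by -3.04 on the log2 scale, from -4.40 ± 0.23 to -7.44 ± 0.35 (SD, n = 3). Pfkp gained on Pfkm by 2.14 and on Pfkl by 1.34, Slc2a3 gained on Slc2a1 by 1.74, Aldoc on Aldoa by 1.47 and Slc16a3 on Slc16a1 by 1.43. Pfkfb4 lost ground to Pfkfb3, by -1.92, and Hk2 to Hk1, by -0.53. Eno2 and Eno1 kept overlapping ratios, from -3.99 ± 0.15 to -4.02 ± 0.14, a difference of -0.03 (exact permutation p = 1).

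Per kilobase of transcript, these differences translate into the makeup of each step. Pfkp made up 15.2, 14.2 and 14.8% at 21% O2 and 30.3, 33.0 and 32.2% at 1% O2 of the phosphofructokinase level, while Pfkl remained the larger part at 70.9, 73.6 and 73.1% at 21% O2 and 63.1, 61.2 and 61.4% at 1% O2. Hk1 made up 69.0, 66.9 and 68.9% at 21% O2 and 77.2, 74.6 and 75.8% at 1% O2 of the hexokinase level. Within the fructose 2,6-bisphosphate enzymes the share of Pfkfb3 was 46.7, 50.8 and 51.9% at 21% O2 and 82.4, 80.2 and 79.9% at 1% O2. For each of these shares the groups did not overlap. Ldhb made up 6.10, 6.92 and 5.17% at 21% O2 and 0.624, 1.00 and 0.737% at 1% O2 of lactate dehydrogenase. GLUT3 stayed a minor carrier in spite of its fold change, with Slc2a3 at 2.22, 2.19 and 2.29% at 21% O2 and 7.86, 8.02 and 8.12% at 1% O2 of the glucose transporter level and Slc2a1 at 77.8, 75.5 and 78.7% at 21% O2 and 83.0, 83.8 and 82.6% at 1% O2.

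**Figure D3:**
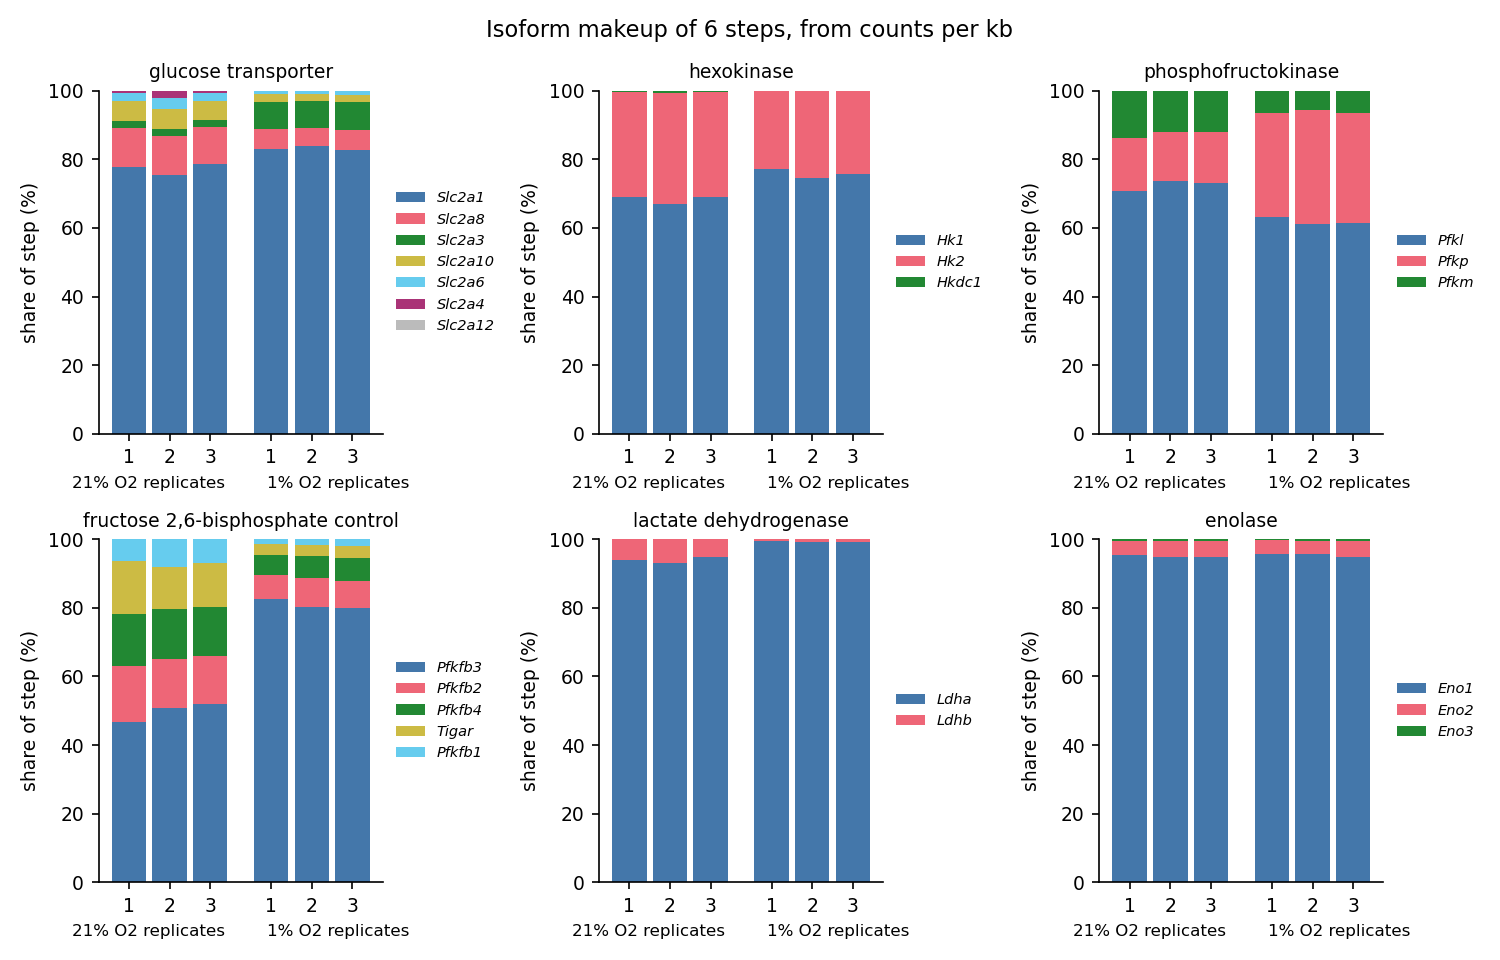
Share of each isoform (%) in the summed level per kilobase of 6 steps, in each of the 6 samples. Pfkp grows from 14.2 to 15.2% at 21% O2 to 30.3 to 33.0% at 1% O2 and Ldhb shrinks from 5.17 to 6.92% to 0.624 to 1.00%, while the enolase panel looks alike in both groups.

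Levels per kilobase of transcript differed widely among the tested members. At 21% O2 Gapdh, Aldoa and Pkm were highest, at 1331 ± 96.6, 1224 ± 101 and 1129.6 ± 46.6 CPM per kb (SD, n = 3). Gapdh and Aldoa overlapped across samples, as did Aldoa and Pkm. At 1% O2 Gapdh reached 3188 ± 86.9 CPM per kb and stood above Pkm (2219.9 ± 64.1) and Eno1 (1694 ± 73.0) without overlap. Ldha (1579 ± 65.9), Bsg (1518 ± 69.7) and Aldoa (1510.2 ± 59.3) followed with overlapping samples, so that Aldoa moved from the second to the sixth place. Of the 15 members over 100 CPM at 21% O2, 14 were called higher, Aldoa being the exception, beside 9.46% of all 1987 genes over that level. The 22 tested members at or below it divided into 8 called higher, 5 lower and 9 neither, beside 20.3% called higher and 15.3% lower of all tested genes at or below that level.

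**Figure D4:**
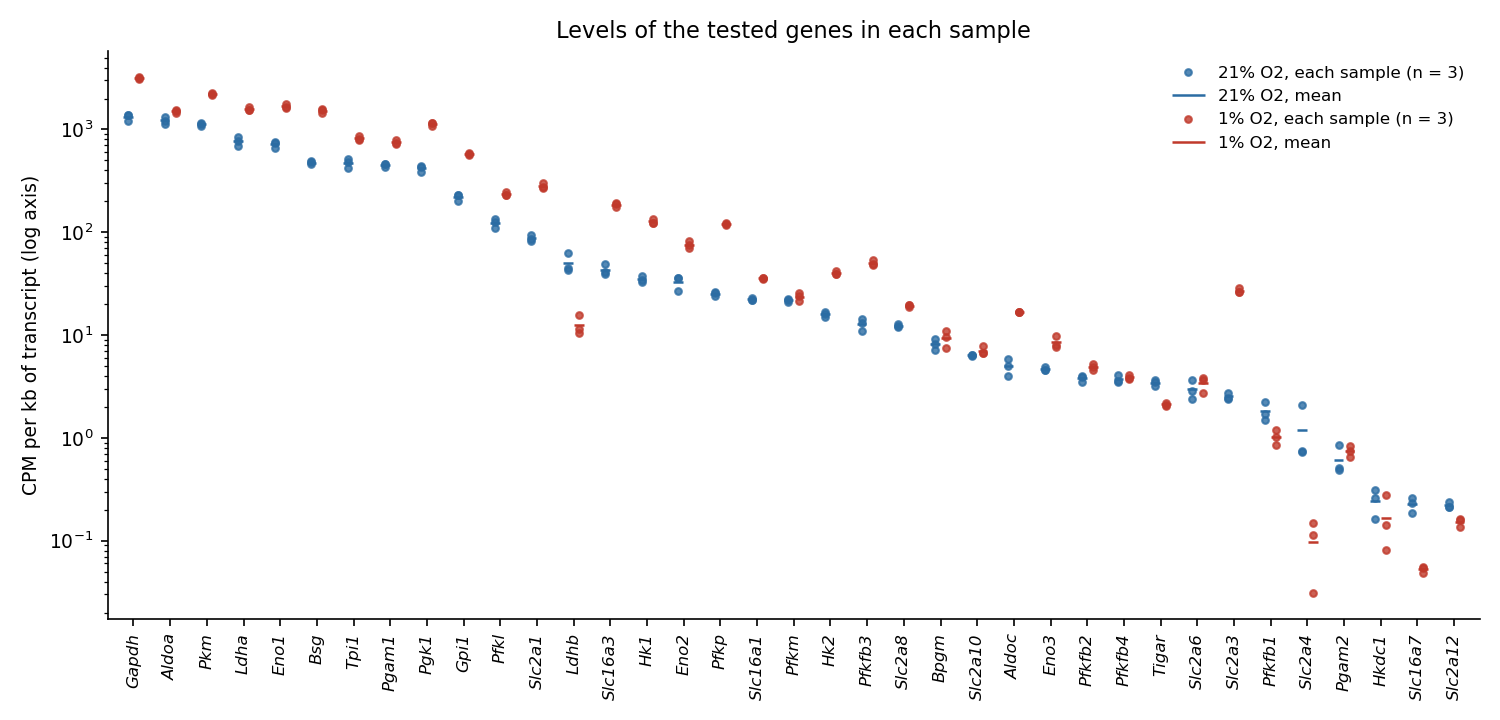
Level of each tested gene in each sample (CPM per kb of transcript, log axis), ordered by the mean at 21% O2, with short lines for the group means. The points of the 2 groups are apart for most genes above 10 CPM per kb, and Ldhb, Slc2a4 and Slc16a7 are the clearest cases of lower hypoxic samples.

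Pathways that branch from glycolysis were described by their counts of called genes, to be read beside the 18.9% and 15.3% of all tested genes called higher and lower. Among 13 genes that route pyruvate into mitochondria, 1 was called higher and 5 lower, with a median log2 fold change of -0.53. Without normoxia replicate 2, the counts were 2 and 3. The gene called higher was Pdk1, the kinase that shuts off pyruvate dehydrogenase, at 94.6, 115 and 109 CPM at 21% O2 and 301, 304 and 299 CPM at 1% O2 (log2 fold change 1.5, SE 0.074, adjusted p = 4.69e-07). Mpc2, a subunit of the mitochondrial pyruvate carrier, was the lowest of those that fell, at 57.6, 79.2 and 50.3 CPM at 21% O2 and 20.9, 24.9 and 22.0 CPM at 1% O2 (log2 fold change -1.46, SE 0.15, adjusted p = 4.14e-05). In the pentose phosphate pathway none of 8 was called higher and 3 were called lower (Rpia among them), from Rpe, an epimerase (log2 fold change -0.76, SE 0.069, adjusted p = 1.79e-05), to the first enzyme G6pdx, at 139.8, 170.4 and 141 CPM at 21% O2 and 70.5, 77.1 and 71.7 CPM at 1% O2 (log2 fold change -1.04, SE 0.083, adjusted p = 8.25e-06). No gene was called higher and 6 of 10 were called lower in the shuttles that pass cytosolic NADH to mitochondria, between Gpd2 (log2 fold change -0.59, SE 0.068, adjusted p = 7.31e-05) and Gpd1 (log2 fold change -2.70, SE 0.57, adjusted p = 0.00268). Gpd2 was not called without normoxia replicate 1 or hypoxia replicate 1 or 3. Gpd1, a glycerol phosphate dehydrogenase abundant in fat, was at 4.89, 19.4 and 4.91 CPM at 21% O2 and 1.06, 1.37 and 2.01 CPM at 1% O2, highest in normoxia replicate 2, as were the adipocyte markers, whose part in it was not tested. Without that replicate its log2 fold change was -1.71 (adjusted p = 0.000336).

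In gluconeogenesis 4 of 6 genes were tested. Pcx, which makes oxaloacetate from pyruvate, was called lower (log2 fold change -2.25, SE 0.20, adjusted p = 1.76e-05) and the glucose 6-phosphate transporter Slc37a4 higher (log2 fold change 0.88, SE 0.10, adjusted p = 6.83e-05). Pcx too was highest in normoxia replicate 2, at 114, 198 and 112 CPM in the normoxic samples. Of 8 tested genes for fructose, mannose and galactose, Galk1, a galactose kinase, rose (log2 fold change 0.80, SE 0.056, adjusted p = 3.77e-06). Mpi, which interconverts mannose and fructose phosphates, fell (log2 fold change -0.59, SE 0.10, adjusted p = 0.000982) and was not called without normoxia replicate 2 or without hypoxia replicate 2. Of 5 hexosamine pathway genes 1 was called higher, the entry enzyme Gfpt2, at 133, 145 and 148 CPM at 21% O2 and 342, 355 and 352 CPM at 1% O2 (log2 fold change 1.3, SE 0.059, adjusted p = 2.89e-07). Among glucose-sensing genes Arrdc4 rose (log2 fold change 0.82, SE 0.071, adjusted p = 1.25e-05) and Mlxipl, a carbohydrate-response factor, fell (log2 fold change -2.28, SE 0.39, adjusted p = 0.000745). Mlxipl was also highest in normoxia replicate 2, at 5.0, 15.1 and 7.91 CPM in the normoxic samples, and without it the log2 fold change was -1.76. Other isoforms of the pathway were mostly low, with 9 of 16 tested, 4 higher and 2 lower, of which Hk3 (log2 fold change -0.71, SE 0.28, adjusted p = 0.0467) was not called without normoxia replicate 2 or 3 or hypoxia replicate 1 or 3. Emb, the chaperone of MCT2, fell from 243, 219 and 229 CPM to 125, 95.6 and 107 CPM (log2 fold change -1.08, SE 0.093, adjusted p = 1.3e-05).

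As a reference for the size of the response, 10 known hypoxia targets outside glycolysis were listed, and all 10 were called higher, with a median log2 fold change of 2.11 against 0.80 for the glycolytic genes. They ran from the collagen hydroxylase P4ha1 (log2 fold change 0.94, SE 0.064, adjusted p = 3.03e-06) to carbonic anhydrase 9 (Car9), at 1.77, 1.90 and 2.27 CPM at 21% O2 and 73.7, 63.0 and 70.9 CPM at 1% O2 (log2 fold change 5.13, SE 0.11, adjusted p = 1.01e-08). Both lists were chosen with results of these data known, and the difference between them was not tested.

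**Figure D5:**
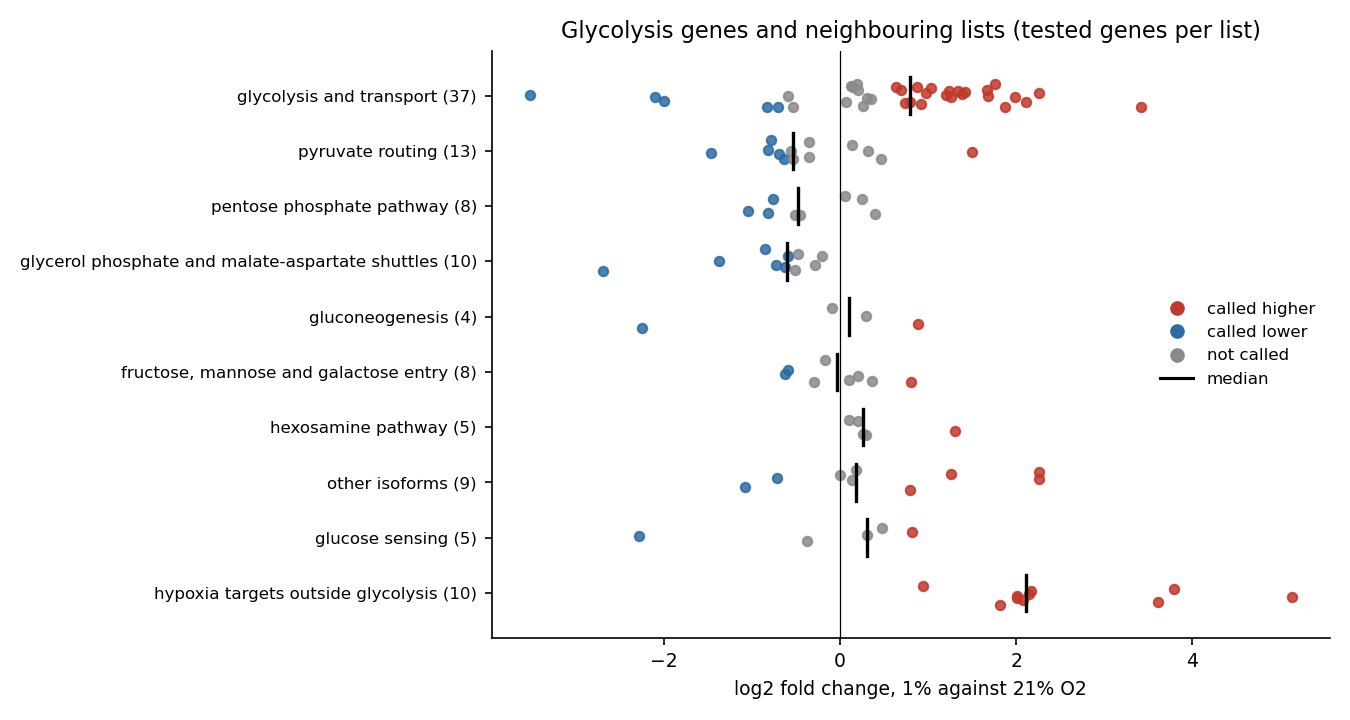
Log2 fold changes (1% against 21% O2, n = 3 per group) of the tested genes of the glycolysis list and of 9 neighbouring lists, 1 point per gene, with the number tested in parentheses and a black line at the median. The glycolysis list has 22 red and 5 blue points around a median of 0.80, while the medians of pyruvate routing, the pentose phosphate pathway and the NADH shuttles lie below 0.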

How the data were processed

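RNA from mouse PSCs cocultured with mT3 organoids was sequenced from 3 normoxic (21% O2) and 3 hypoxic (1% O2) samples, grouped by their labels. The authors prepared poly(A) libraries, trimmed adapters with Cutadapt, mapped reads to GRCm38 with STAR (2.6.1b) and assigned them to genes with RSEM (1.3.1). The annotation release and strand setting are not given in the sources used here. The deposited table holds RSEM's expected counts (estimated per gene), not normalized between samples, for 55426 rows, of which 5 are transgenes with 0 counts. As 0 of the values had a fraction, rounding them changed nothing.

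Gene names, coordinates and transcript lengths came from GENCODE M21, which held 55240 of the identifiers. Counts were tested with edgeR 4.0.16 (filterByExpr, TMM, quasi-likelihood F test, Benjamini-Hochberg adjustment over 16207 genes, R 4.3.3, limma 3.58.1). The linear fold change of 1.5 and adjusted p under 0.05 follow the authors' thresholds. SEs were computed as the absolute log2 fold change over the root of F, and CPM use the TMM-scaled library size. Levels per kb were divided by the length of the principal transcript. Copies were transcripts of other genes with at least 95% identity by BLAST 2.17.0 over at least 50% of the copy and 200 bases. Promoter windows were RefSeq's. The tests were tested on simulated data with known changes.

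All members were named, with the highest and lowest called gene of each neighbouring list, and the most abundant and the called markers. Rpia, Mpi, Hk3, Gm49759, Krt7, Muc1 and single defining markers fall outside this rule, having been picked once their values were known. The members and lists were chosen with earlier results of these data known. Alternatives were a replicate block, other scalings, filters and thresholds, DESeq2 1.42.0, limma-voom, copies added and each sample left out. The paper's other experiments were not analysed here, and some genes of the neighbouring lists are not reported here.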

Additional observations from a re-analysis of the deposited data

How the results depend on the processing

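The counts of 22 members called higher and 5 lower, and each member's own call, held with a replicate block, other scalings (RLE, upper quartile, members left out of the scaling), no filter, a filter of 1 CPM in 3 samples, limma-voom, DESeq2 (also with the block), copies added, Gm49759 added to Pkm, and each sample left out. With the filter of 1 CPM the median log2 fold change of the members was 0.90, over 34 genes instead of 37. Beyond 2-fold, 15 members were called higher and 3 lower, and without a fold threshold 24 and 5. The ratio of Eno2 to Eno1 changed sign in 4 of the 6 fits that left out 1 sample, with a range of -0.11 to 0.026, and the cause was not tested. With DESeq2, 1 of the other isoforms was called lower instead of 2. Replicate numbers are shared between the groups, but no source used here states that they pair the samples, so they were not treated as pairs. The deviations of samples with the same number correlated at 0.142, 0.139 and 0.0378, which alone does not decide whether they are pairs. Macrophage and adipocyte marker sums were highest in replicate 2 of both groups. Endothelial marker sums were lowest in normoxia replicate 2 and highest in hypoxia replicate 2. A shared origin of samples with the same number was not tested. With the replicate block 22 members were called higher and 5 lower, with a median of 0.80. Slc2a12, Hkdc1, Pgam2, Pfkfb1, Slc2a4 and Slc16a7 rest on fewer than 150 counts per library, with SEs from 0.22 (Pfkfb1) to 0.57 (Slc2a4). The parts of low counts and of other spread between replicates in these SEs were not told apart.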

Other observations

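Positions of the members were looked at after their values were seen. Eno2, Tpi1 and Gapdh lie within 0.5 Mb of each other on mouse chromosome 6, with 40.9 kb between Eno2 and Tpi1 and 347 kb between Tpi1 and Gapdh, and Slc2a3 and Tigar lie 1958 kb and 1919 kb to either side. The first 4 of these were called higher and Tigar lower. Hk1 and Hkdc1, neighbours 3.2 kb apart, had unequal values, 1.87 (SE 0.067) for Hk1 and -0.59 (SE 0.44) for Hkdc1 on the log2 scale, the second not being called. Whether neighbours on a chromosome differ from other genes was not tested.

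Within the normoxic group, replicate 1 had the lowest value for 16 of the 22 members called higher, replicate 2 for 5 and replicate 3 for 1. Within the hypoxic group, replicate 1 had the highest value for 12 of the 22, replicate 2 for 7 and replicate 3 for 3. These genes share libraries and scaling, and the counts are a description of these samples.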
